A study of Mus musculus with 31 samples.

Results

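A set of 9 genes of synaptic adhesion were followed in RNA from the basolateral amygdala (BLA) of mice that overexpress human CYFIP1, out of 48709 genes counted in each mouse. They are Nrxn2 and Nrxn3 (neurexins), Nlgn1, Nlgn2 and Nlgn3 (neuroligins), Lrrtm1 and Lrrtm2, Cntnap2 and Cadm1 and were chosen by name. All 9 were counted in every mouse and passed the filter on low counts. Tissue punches of left and right BLA were pooled for each of 31 mice and sequenced by QuantSeq, a method that reads the 3′ end of each polyadenylated transcript. The transgenic mice carry a bacterial artificial chromosome with human CYFIP1 inserted by pronuclear injection on a C57BL/6N background, and their non-transgenic counterparts were WT. In the line labelled 1 there were 8 WT mice (4 males and 4 females, 59 to 61 days old) and 7 CYFIP1 OE mice (3 males and 4 females, 59 to 77 days old). In the line labelled 3 there were 8 WT mice (4 males and 4 females, 58 to 60 days old) and 8 CYFIP1 OE mice (4 males and 4 females, 58 to 64 days old). Each line descends from its own insertion, and the transgene's reads do not count towards mouse Cyfip1 except where they were assigned to mouse sequence. Mouse Cyfip1 itself had a log2 fold change of -0.02 between CYFIP1 OE and WT mice (SE 0.08, p = 0.765 from edgeR).

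Neurexins are presynaptic receptors whose extracellular domains cross the synaptic cleft. Neuroligins and the LRRTM proteins are postsynaptic membrane proteins that bind them, and the pairing helps to assemble and specify synapses. Neuroligin 1 is best known at excitatory synapses, neuroligin 2 at inhibitory synapses and neuroligin 3 at both kinds, while LRRTM1 and LRRTM2 act at excitatory synapses. CNTNAP2, also called CASPR2, is a neurexin-like protein that gathers potassium channels along myelinated axons, and CADM1, also called SynCAM, is an immunoglobulin adhesion protein that spans the cleft.

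Some of these genes have several starts, and a 3′ read does not tell them apart. In the GENCODE annotation of GRCm38, Nrxn3 (chromosome 12, 88722876 to 90334935, plus strand) has 5 protein-coding transcripts from 4 starts, and all 5 end within 5 kb of the end of the gene. The longer forms encode the alpha protein and the short form, from the last start, the beta protein. Cntnap2 (chromosome 6, 45059357 to 47304213, plus strand) has 5 coding transcripts from 5 starts, of which 3 end within 5 kb of the end of the gene. The value of either gene is therefore a sum over starts. The 150 bases before each RefSeq start of these 2 genes (GRCm38.p6, plus strand, 5′ to 3′, CG pairs in capitals) show how unlike the starts are in sequence. First, middle and last refer to these RefSeq starts, and for both genes GENCODE lists transcripts that begin upstream of the first one.
Nrxn3, first start, chr12:88794354-88794503: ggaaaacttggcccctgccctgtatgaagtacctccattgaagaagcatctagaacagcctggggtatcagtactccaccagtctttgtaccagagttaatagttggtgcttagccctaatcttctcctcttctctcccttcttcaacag
Nrxn3, middle start, chr12:88953240-88953389: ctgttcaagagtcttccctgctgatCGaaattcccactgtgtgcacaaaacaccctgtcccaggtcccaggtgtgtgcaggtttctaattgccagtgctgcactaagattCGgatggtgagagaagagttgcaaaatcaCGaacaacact
Nrxn3, last start, chr12:89812333-89812482: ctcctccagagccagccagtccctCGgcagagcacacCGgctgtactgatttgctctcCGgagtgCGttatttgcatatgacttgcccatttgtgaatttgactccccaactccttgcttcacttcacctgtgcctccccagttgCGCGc
Cntnap2, first start, chr6:45059911-45060060: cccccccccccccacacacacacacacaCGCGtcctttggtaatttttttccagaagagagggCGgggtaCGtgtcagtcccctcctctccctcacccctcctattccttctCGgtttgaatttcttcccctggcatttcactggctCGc
Cntnap2, last start, chr6:47244246-47244395: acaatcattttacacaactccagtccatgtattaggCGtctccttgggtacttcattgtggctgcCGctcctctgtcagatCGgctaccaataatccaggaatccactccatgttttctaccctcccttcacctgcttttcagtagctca

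The window before the first RefSeq start of Nrxn3 held 0 CG pairs, the middle one 3 and the last one 6. Of the 32851 windows of this length in the RefSeq table, 59.4% held at least 3 and 41.4% at least 6, with a median of 4. The first Cntnap2 window held 6 and the last 3. Windows were found for 5 of the 9 genes, and the one with the most CG pairs was that of Nlgn2, with 15, a number reached by 15.3% of all windows. These counts describe the sequence and were not related to expression.

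The 2 neurexins were the most abundant of the 9 genes. Levels are given in CPM, a gene's counts relative to the TMM-scaled total of its library, which in 3′ sequencing do not grow with transcript length. Nrxn2 (chromosome 19, 6418731 to 6544169, plus strand) had a mean of 601 CPM (SD 113, n = 31), higher than 99.4% of the 17428 genes tested. Nrxn3 followed with 328 CPM (SD 65.7), and was below Nrxn2 in 30 of 31 mice. Cadm1 (chromosome 9, 47530173 to 47857637, plus strand) had 137 CPM (SD 55.0). The postsynaptic genes were lower. Nlgn1 (chromosome 3, 25426215 to 26332460, minus strand) had 90.4 CPM (SD 12.4), Nlgn3 (chromosome X, 101299168 to 101325963, plus strand) 55.5 CPM (SD 8.18) and Nlgn2 (chromosome 11, 69823122 to 69837784, minus strand) 24.1 CPM (SD 5.53). Cntnap2 lay among them with 83.3 CPM (SD 12.7). Lrrtm2 (chromosome 18, 35209003 to 35215024, minus strand) had 22.9 CPM (SD 5.85) and Lrrtm1 (chromosome 6, 77242689 to 77257791, plus strand) 14.7 CPM (SD 3.48). The ranges of all neighbours in this order overlapped. Nlgn1 exceeded Cntnap2 in 20 of 31 mice and Nlgn2 exceeded Lrrtm2 in 19 of 31, so these neighbours did not differ beyond their spread, whereas Nlgn3 exceeded Nlgn2 in all 31.

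**Figure D1:**
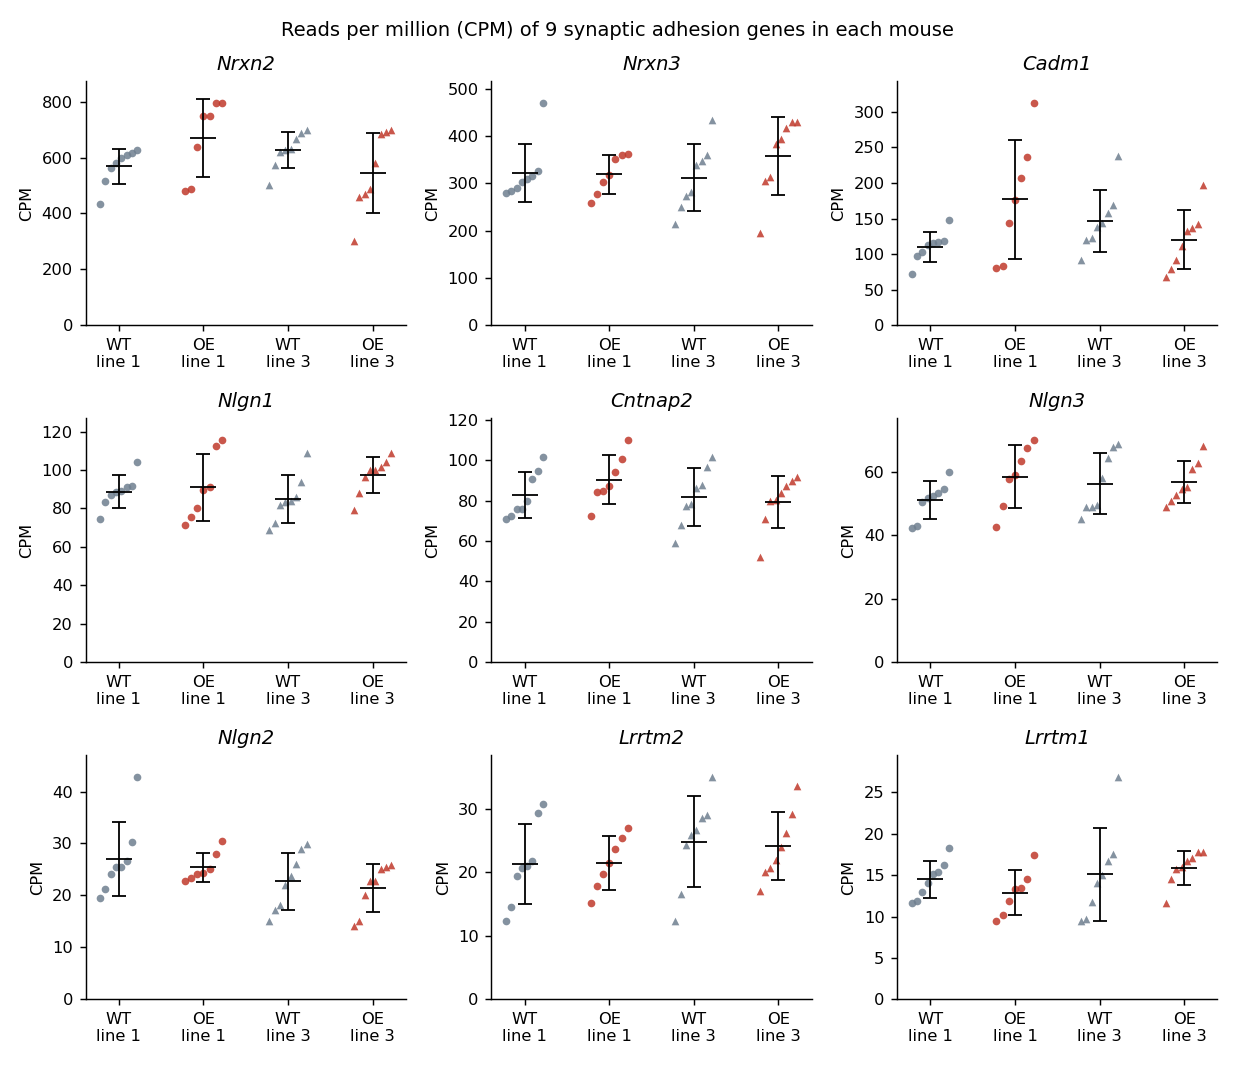
Level of each gene in each mouse, in CPM on linear axes from 0, with WT mice in grey, CYFIP1 OE mice in red, circles for line 1 and triangles for line 3. Horizontal bars and whiskers give the mean and SD of each group of 7 or 8 mice, and the groups overlap in all 9 panels.

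Cadm1 varied most between mice and Nlgn1 least. The highest Cadm1 value was 4.58 times the lowest (68.1 to 312 CPM), and its biological coefficient of variation, the spread between mice beyond counting error, was 0.324, above that of 47.5% of tested genes. For Nlgn1 the ratio was 1.67 and the coefficient 0.154, with 2.19% of genes lower, and Nlgn3 was close to it with 1.66 and 0.165. Nrxn2 and Nrxn3 had coefficients of 0.207 and 0.215. The lowest count behind any of these values was 65 reads, for Lrrtm1, and the highest 6592, for Nrxn2, so counting error weighed most on Lrrtm1, Lrrtm2 and Nlgn2.

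The mice differed in ways that the groups do not explain, and 3 of these differences touch the values that follow. A male CYFIP1 OE mouse of line 3 (CYFIP1 OE mouse 1) stood apart from all others in its whole profile, with a connectivity Z-score of -4.74 against -1.18 for the next lowest. By the paper's methods, samples with such a score under -2 were left out. This mouse was kept in the main values here, and some values without it are given below. It had the lowest Nrxn2 (301 CPM), Nrxn3 (195 CPM) and Cntnap2 (52.1 CPM) of the 31 mice. The tissue label was checked against markers. Slc17a7, the vesicular glutamate transporter of BLA principal neurons, ranged from 3.01 to 1110 CPM, and Ppp1r1b, abundant in striatal neurons, from 111 to 2210 CPM with a median of 1040. Rspo2, a marker of principal neurons, was at 0 reads in 1 mouse. The punches thus differed widely in markers of the BLA and of the neighbouring striatum. In such bulk tissue fewer cells of a type and less RNA per cell cannot be told apart. Lastly, 7 of the 8 WT mice of line 1 shared a name prefix that no CYFIP1 OE mouse had, so in line 1 this name group and genotype can hardly be separated.

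The first question was whether CYFIP1 overexpression changed the expression of these genes. It was asked for both lines together, for each line, and as the difference between the lines, with edgeR's quasi-likelihood test and Benjamini-Hochberg adjustment over all 17428 genes. None of the 9 genes had an adjusted p under 0.05 in any of these comparisons, and the share of all tested genes that did was 0% in each of the 4. DESeq2 also called none of the 9.

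For both lines together the differences were small, and that of Cadm1 pools opposite signs (0.68 in line 1 and -0.30 in line 3). The log2 fold changes of the 9 genes ran from -0.08 for Nlgn2 (SE 0.11) to 0.17 for Cadm1 (SE 0.19). None had an unadjusted p under 0.05, as against 4.3% of all genes, and the smallest was that of Nlgn1 (log2 fold change 0.11, SE 0.08, p = 0.146). The 95% confidence interval for Nrxn2 was -0.20 to 0.23, for Nrxn3 -0.12 to 0.31, for Nlgn3 -0.07 to 0.27 and for Cntnap2 -0.13 to 0.22. A change of the size of 1 log2 unit, a doubling, lay outside the intervals of all 9 genes. The median log2 fold change was 0.05 over the 9 genes and -0.0053 over all genes.

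In line 1, Cadm1 was the gene with the largest difference of the 9. WT mice of line 1 had from 71.8 to 147 CPM with a median of 114, and CYFIP1 OE mice from 80.4 to 312 CPM with a median of 176. Of the 7 CYFIP1 OE mice, 4 exceeded the highest WT mouse while the other 3 lay within the WT range, so the groups overlapped. The log2 fold change was 0.68 (SE 0.24, unadjusted p = 0.00759, adjusted p = 1 from edgeR). Cadm1 alone among the 9 had an unadjusted p below 0.05 in line 1, where the share over all tested genes was 3.96%. Leaving out CYFIP1 OE mouse 7, the highest at 312 CPM, gave 0.45 (p = 0.0585), and this was the only mouse whose absence took the p above 0.05. With age in the model the value was 0.51 (p = 0.0936), and without the 4 mice aged 77 days, all of them CYFIP1 OE mice of line 1, it was 0.54 (p = 0.0651).

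Nrxn2 lay the same way in line 1 but with a difference that did not pass the unadjusted threshold. WT mice of line 1 had 435 to 626 CPM with a median of 590 and CYFIP1 OE mice 480 to 795 CPM with a median of 750. Of 7 CYFIP1 OE mice 5 were above the highest WT mouse, while the other 2 were near the bottom of the WT range. The log2 fold change was 0.24 (SE 0.15, p = 0.110). For Nlgn3 it was 0.20 (SE 0.12, p = 0.101) with 42.2 to 60.0 CPM in WT and 42.5 to 69.9 CPM in CYFIP1 OE mice. The other 6 genes in line 1 had values between -0.20 for Lrrtm1 (SE 0.17) and 0.14 for Cntnap2 (SE 0.12).

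In line 3 the unadjusted p was 0.05 or more for all 9 genes, while 7.93% of all genes were below it. Cadm1 was lower on average, with 91.4 to 238 CPM and a median of 141 in WT mice and 68.1 to 197 CPM and a median of 122 in CYFIP1 OE mice (log2 fold change -0.30, SE 0.23, p = 0.201). The mean of the WT group was exceeded by 1 of the 8 CYFIP1 OE mice, CYFIP1 OE mouse 1 at 197 CPM. Without that mouse the Cadm1 value was -0.43 (p = 0.0695 from edgeR). Nrxn2 had 503 to 699 CPM in WT and 301 to 699 CPM in CYFIP1 OE mice (-0.20, SE 0.14, p = 0.174), with 4 of the 8 values in CYFIP1 OE mice below the lowest WT mouse. Without CYFIP1 OE mouse 1 the Nrxn2 value was -0.09 (p = 0.441 from edgeR). Nrxn3 had 214 to 433.4 CPM in WT and 195 to 430 CPM in CYFIP1 OE mice (0.20, SE 0.15, p = 0.186). Without CYFIP1 OE mouse 1, the mouse that stands apart, the Nrxn3 value was 0.30 (SE 0.13, p = 0.0332, adjusted p = 0.497). Nlgn1 had 69.0 to 109 CPM in WT and 79.3 to 109 CPM in CYFIP1 OE mice (0.20, SE 0.10, p = 0.0620), and the WT mean was exceeded by 7 of 8 CYFIP1 OE mice.

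The remaining values lay close together in WT and CYFIP1 OE mice. In line 1, Nrxn3 had 280 to 470 CPM in WT and 258 to 363 CPM in CYFIP1 OE mice (log2 fold change -0.02, SE 0.15), and Nlgn1 74.5 to 104 CPM and 71.2 to 115 CPM (0.02, SE 0.11). Nlgn2, the neuroligin of inhibitory synapses, had 19.6 to 42.7 CPM in WT and 22.8 to 30.4 CPM in CYFIP1 OE mice of line 1 (-0.09, SE 0.17), and 15.0 to 29.9 CPM and 14.1 to 25.8 CPM in line 3 (-0.08, SE 0.16). Cntnap2 had 70.7 to 101 CPM and 72.5 to 110 CPM in line 1, and 58.8 to 101 CPM and 52.1 to 91.5 CPM in line 3 (-0.04, SE 0.12). Without CYFIP1 OE mouse 1, the lowest in Cntnap2, the value in line 3 was 0.05.

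The LRRTM genes also overlapped in both lines. Lrrtm1 had 11.7 to 18.3 CPM in WT and 9.5 to 17.4 CPM in CYFIP1 OE mice of line 1, and 9.53 to 26.8 CPM and 11.6 to 17.8 CPM in line 3 (0.09, SE 0.16). Lrrtm2 had 12.4 to 30.8 CPM and 15.2 to 27.0 CPM in line 1 (0.01, SE 0.19), and 12.3 to 34.9 CPM and 17.0 to 33.6 CPM in line 3 (-0.05, SE 0.19). Nlgn3 in line 3 had 45.2 to 68.7 CPM in WT and 49.0 to 68.2 CPM in CYFIP1 OE mice (0.01, SE 0.11).

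**Figure D2:**
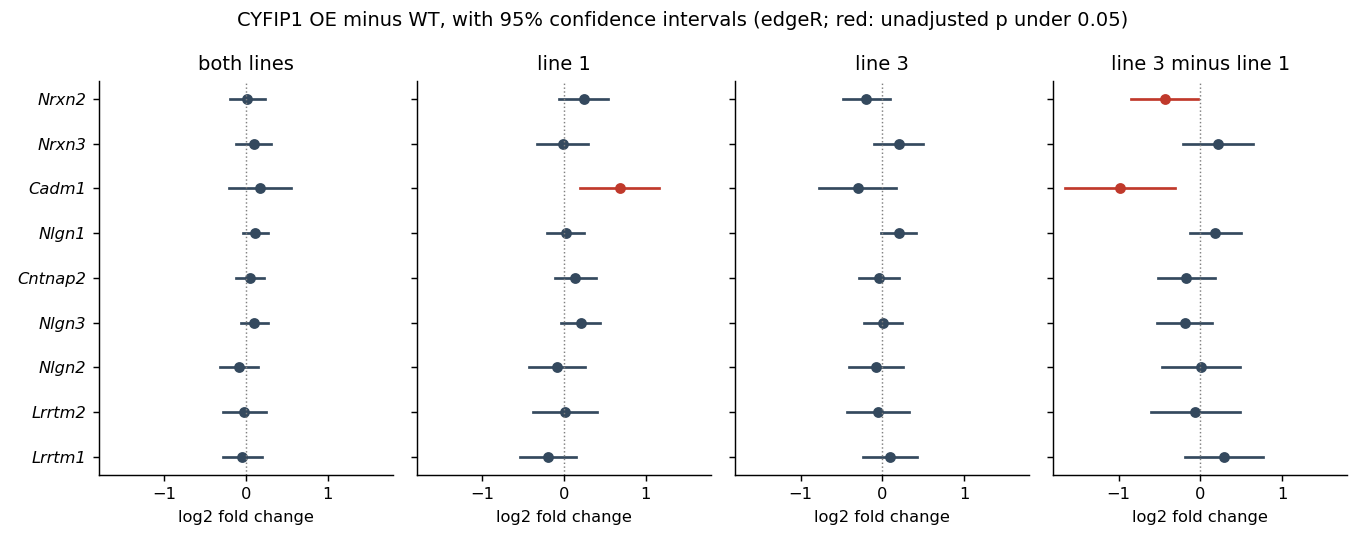
Log2 fold change of each gene between CYFIP1 OE and WT mice for both lines together, line 1, line 3, and line 3 minus line 1, with 95% confidence intervals from edgeR. Red marks an unadjusted p under 0.05, which Cadm1 had in line 1 (0.68) and in the difference between lines (-0.98), and Nrxn2 in the difference between lines (-0.43).

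The difference between the lines was tested directly. Cadm1 differed by -0.98 on the log2 scale between line 3 and line 1 (SE 0.33, unadjusted p = 0.00579, adjusted p = 0.535 from edgeR), and Nrxn2 by -0.43 (SE 0.20, unadjusted p = 0.0392, adjusted p = 0.587). These were 2 of the 9 genes, where the share over all genes was 8.1%, and neither passed adjustment. The Cadm1 difference kept an unadjusted p under 0.05 with each of the 31 mice left out in turn. The Nrxn2 difference kept it in 18 of 31, and without CYFIP1 OE mouse 1 it was -0.33 (p = 0.0624).

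Medians of marker levels also differed between these groups, and those of striatal neuron markers lay opposite to Cadm1 in each line. Striatal neuron markers (8 of 9 tested, since Drd2 had 0 reads in 20 of 31 mice) summed to 3090 to 4410 CPM in WT and 750 to 4880 CPM in CYFIP1 OE mice of line 1, with medians of 3940 and 2550. In line 3 they summed to 269 to 5640 CPM in WT and 302 to 6260 CPM in CYFIP1 OE mice, with medians of 2560 and 3920. In the difference between lines 7 of these 8 markers had an unadjusted p under 0.05, and none an adjusted p under 0.05. Excitatory principal neuron markers had medians of 228 and 379 CPM in WT and CYFIP1 OE mice of line 1, and of 470 and 291 CPM in those of line 3, with Rspo2 at 0 reads in a WT mouse of line 1. Oligodendrocyte markers (10 of 10 tested) had medians of 3980 and 2570 CPM in WT and CYFIP1 OE mice of line 1 and of 2880 and 2590 CPM in those of line 3. With the scores of the striatal and oligodendrocyte lists in the model, the Cadm1 value in line 1 was 0.15 (SE 0.15, p = 0.328) and the difference between lines -0.23 (SE 0.21, p = 0.289). With 5 surrogate variables these values were 0.11 (SE 0.10) and -0.07 (SE 0.15). Cadm1 and the striatal score had an r of -0.82 in these same mice. The part of these markers in the Cadm1 difference was not tested. Within name groups, the value in line 1 was 1.71 (SE 0.55, p = 0.00438), but in that line only 1 name group held both genotypes, with 1 WT mouse at 71.8 CPM and 1 CYFIP1 OE mouse at 236 CPM. The same pair carried the Nrxn3 value within name groups in line 1, -0.98 (SE 0.32, p = 0.00561), with 470 CPM in the WT and 258 CPM in the CYFIP1 OE mouse.

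**Figure D3:**
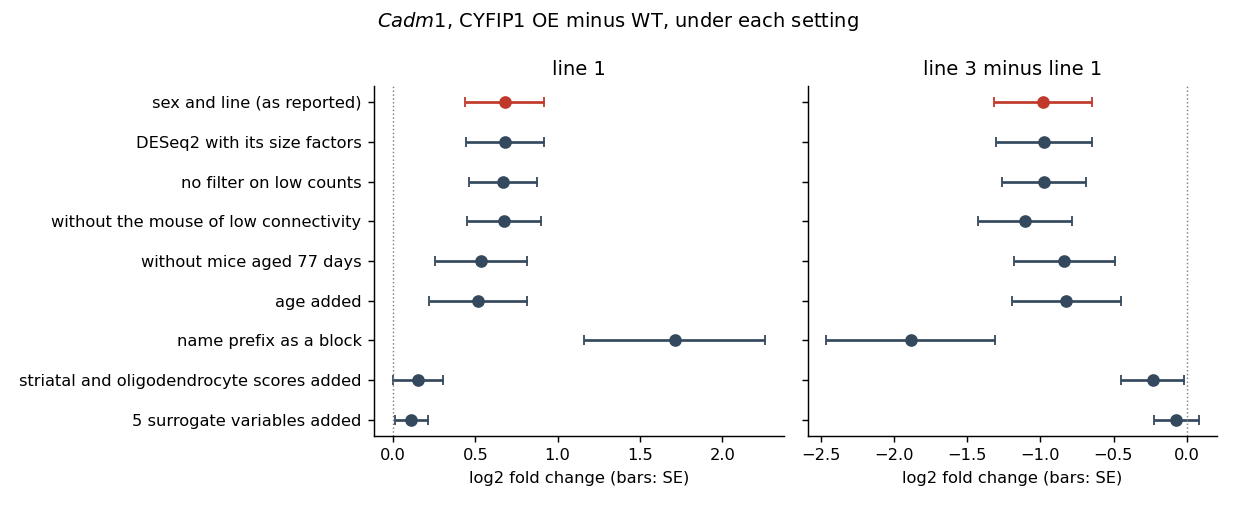
Cadm1 log2 fold change with its standard error in line 1 (left) and as line 3 minus line 1 (right), as reported (red) and under other settings. The values are 0.68 and -0.98 as reported, and the line 1 value is smaller with age added or without the mice aged 77 days. Both values grow in size to 1.71 and -1.89 within name groups. They shrink to 0.15 and -0.23 with the marker scores and to 0.11 and -0.07 with 5 surrogate variables.

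The WT mice of the 2 lines were compared next. None of the 9 genes had an adjusted p under 0.05, nor did any gene (0%), and none had an unadjusted p under 0.05, against 4.41% of all genes. The largest difference was again in Cadm1, 0.42 higher in line 3 on the log2 scale (SE 0.23, p = 0.0799 from edgeR). The 8 WT mice of line 1 had a mean of 110 CPM (SD 21.5) and the 8 of line 3 a mean of 147 CPM (SD 43.6). Line and name group cannot be told apart here.

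Lrrtm1 differed between the sexes at the unadjusted threshold only. The 16 females had 10.2 to 26.8 CPM with a median of 15.7 and the 15 males 9.5 to 18.3 CPM with a median of 13.4. The log2 fold change was 0.26 (SE 0.12, unadjusted p = 0.0335, adjusted p = 0.940 from edgeR). It was 1 of the 9 genes, against 4.93% of all genes, and no member was among the 0.0574% of genes with an adjusted p under 0.05. Without WT mouse 2, the highest at 26.8 CPM, the value was 0.19 (p = 0.0805). Markers of neighbouring regions also differed by sex. At an unadjusted p under 0.05, 4 of 6 central amygdala markers were lower in females (median log2 fold change -0.98 over the 6) and 2 of 5 thalamic markers were lower (median -0.28), none with an adjusted p under 0.05. Summed central amygdala markers had a median of 41.6 CPM in females (highest 108) and 64.5 CPM in males (highest 202), and thalamic markers ran from 69.6 to 127 CPM and 80.0 to 248 CPM, so the sexes overlapped, with none at 0 reads in any mouse. Lrrtm1 had an r of -0.35 with the first score and -0.07 with the second, and the part of these markers in its sex difference was not tested. Nlgn3, the X-linked gene of the 9, had a value of -0.05 (SE 0.08, p = 0.583). Lrrtm1 lies within Ctnna2 and Lrrtm2 within Ctnna1, each on the opposite strand, and since the sources used here do not state whether counting used strand, reads of these pairs may not be separate.

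The next question was whether the 9 genes rose and fell together across mice. Pearson's r and Spearman's rho of log2 CPM were computed for all 36 pairs over 31 mice, with two-sided permutation tests of 100000 resamples and adjustment over the 36 pairs. Of these, 3 pairs had an adjusted p under 0.05, and r ran from -0.64 to 0.56 with a median of 0.07. The mice share line, name groups and dissection, so these values are not those of independent draws from one population.

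Cadm1 took part in 2 of the 3 pairs, in opposite directions with the 2 neurexins. With Nrxn2, r was 0.56 (rho 0.74, permutation p = 0.00108, adjusted 0.0194), and it was 0.88 once the 2 mice with the most extreme Nrxn2 were left out. Within line 1 r was 0.94 (n = 15) and within line 3 0.22 (n = 16). Without CYFIP1 OE mouse 1, which combined the lowest Nrxn2 with 197 CPM of Cadm1, r over the other 30 mice was 0.89. With Nrxn3, r of Cadm1 was -0.64 (rho -0.61, permutation p = 9e-05, adjusted 0.00324), with -0.58 without the 2 extremes of Nrxn3, -0.59 within line 1 (adjusted p = 0.235) and -0.77 within line 3. Over the 25 mice outside the low tail of the striatal marker score it was -0.48 (adjusted p = 0.142). Nrxn2 and Nrxn3 themselves had an r of -0.03 (adjusted p = 0.947).

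Nrxn3 and Lrrtm2 made up the remaining pair, with r of 0.54 (rho 0.46, permutation p = 0.00164, adjusted 0.0197) and 0.50 without the 2 extremes. Within line 1 r was 0.26 and within line 3 0.71, and over the 25 mice outside the low tail of the striatal score it was 0.43 (adjusted p = 0.163). This pair did not pass by rho (adjusted p = 0.104) or with sex and name group removed (0.44, adjusted p = 0.0991). The 3 neuroligins did not pass adjustment with each other, with r of 0.29 for Nlgn1 and Nlgn2, 0.27 for Nlgn1 and Nlgn3 and 0.08 for Nlgn2 and Nlgn3. Nor did Lrrtm1 and Lrrtm2 (r of -0.13). Among the 8449 genes with a mean of at least 10 CPM, 6.17% had an r with Cadm1 as high as that of Nrxn2, 4.12% one as low as that of Nrxn3, and 5.68% an r with Nrxn3 as high as that of Lrrtm2.

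**Figure D4:**
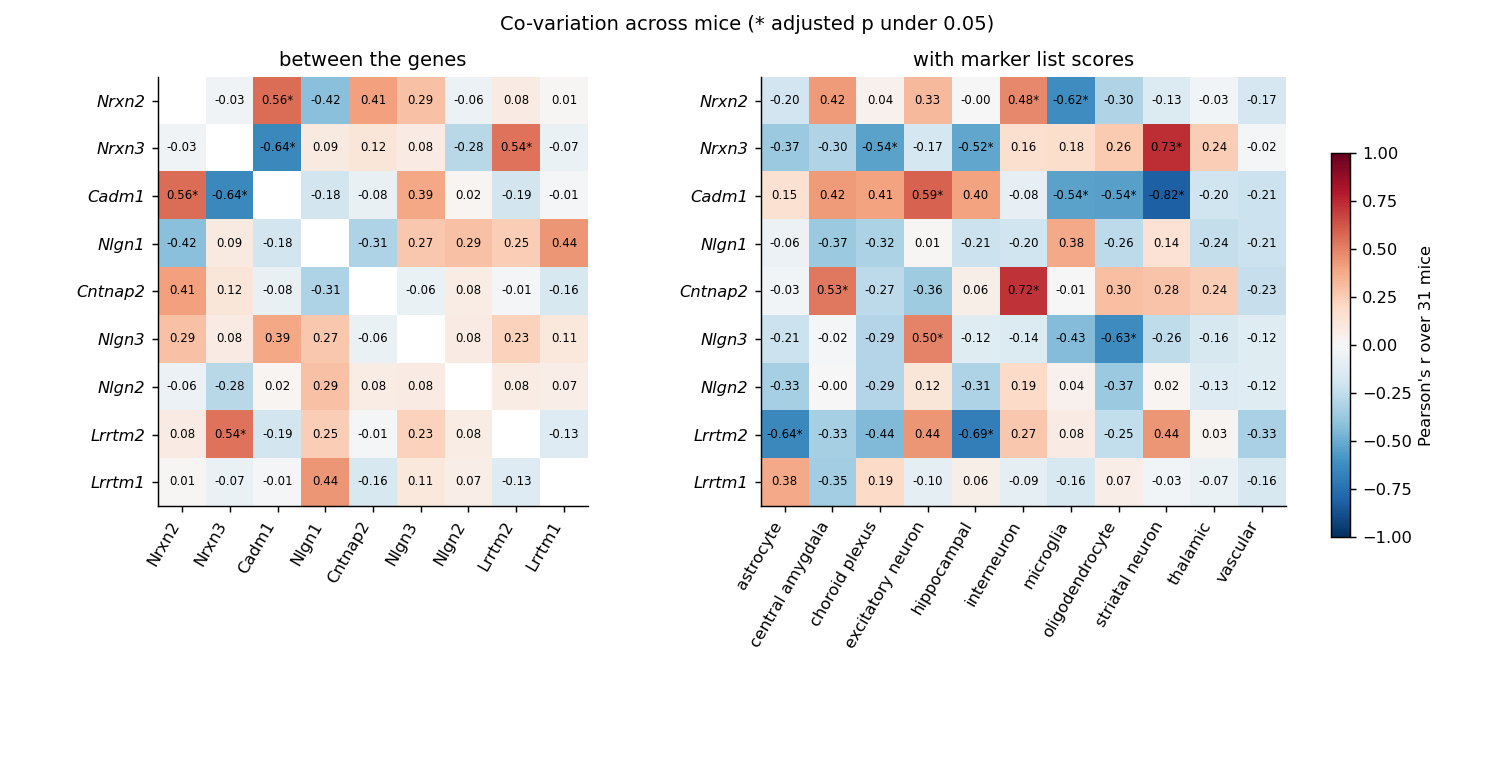
Pearson's r over 31 mice between the 9 genes (left) and between each gene and the mean standardized log2 CPM of 11 marker lists (right), on a colour scale from -1 to 1. Asterisks mark an adjusted p under 0.05, which 3 of 36 pairs and 15 of 99 relations with marker lists had.

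The genes were then related to marker lists of cell types and neighbouring regions, as the mean standardized log2 CPM of each of 11 lists. Of 99 relations, 15 had an adjusted p under 0.05 by permutation. Other genes followed these scores as closely, and the share of the 8449 genes of at least 10 CPM with an r as strong in the same direction ran from 0.0829% to 6.24% over the 15. Each relation was also computed by rho, without CYFIP1 OE mouse 1, over the 25 mice outside a low tail of the striatal score, and with sex and name group removed. The p values of this last setting are too small, since name groups take up part of the freedom of 31 mice. The strongest was between Cadm1 and striatal neuron markers, with r of -0.82 and rho of -0.92. Its permutation p of 1e-05 was the smallest that 100000 resamples can give (adjusted p = 0.00066). It was -0.86 without the 2 mice farthest from the median score, -0.89 within line 1, -0.88 within line 3 and -0.81 over the 25 mice outside the low tail. Only 0.26% of genes had an r with that score as low. The 6 mice in the low tail had scores of at most -0.84 and the other 25 of at least -0.35. Cadm1 also went up with excitatory principal neuron markers (r of 0.59, adjusted p = 0.0073, 3.83% of genes as high) and down with oligodendrocyte markers (-0.54, adjusted p = 0.0167, 4.07% as low) and microglia markers (-0.54, adjusted p = 0.0179, 3.57% as low). Over the 25 mice the first of these passed (0.61, adjusted p = 0.0240) and the other 2 did not (-0.47 with an adjusted p of 0.0938 and -0.48 with one of 0.0882).

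Nrxn3 ran the other way and was higher where striatal markers were higher, with r of 0.73 (rho 0.60, permutation p = 2e-05, adjusted 0.00066), an r that 3.73% of genes reached. This relation was weaker without the low tail. It was 0.56 without the 2 farthest mice and 0.45 over the 25 others (adjusted p = 0.100), with 0.48 within line 1 and 0.83 within line 3. Nrxn3 was also lower with choroid plexus markers (-0.54, adjusted p = 0.0184, 2.11% of genes as low) and hippocampal markers (-0.52, adjusted p = 0.0190, 5.27% as low), but neither call held in all settings. With sex and name group removed the r with choroid plexus markers was -0.42 (adjusted p = 0.0753) and that with hippocampal markers -0.13 (adjusted p = 0.651). Over the 25 mice they were -0.40 (adjusted p = 0.159) and -0.26 (adjusted p = 0.412), and by rho the first had an adjusted p of 0.105.

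**Figure D5:**
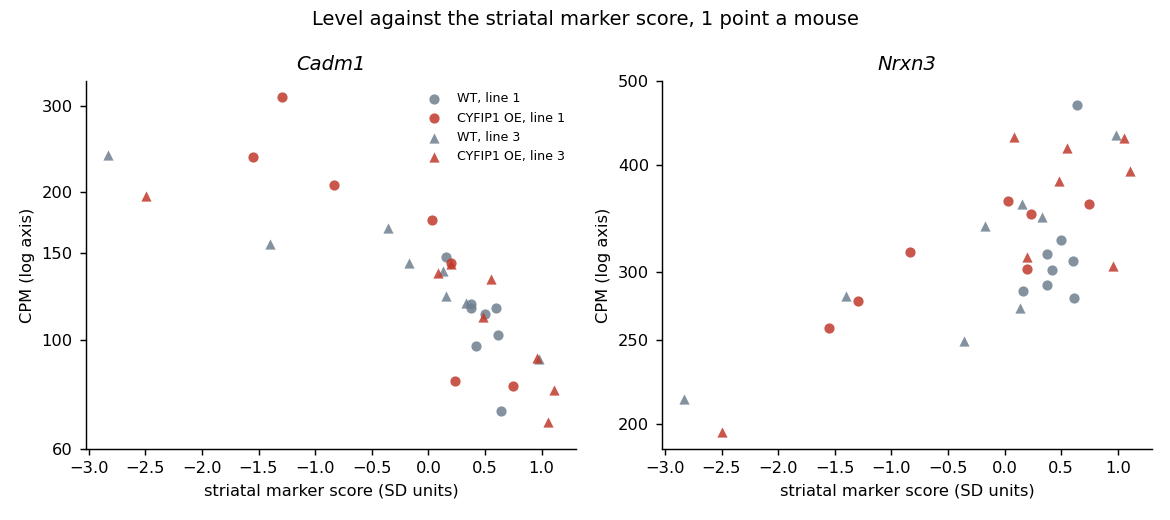
Cadm1 (left) and Nrxn3 (right) in CPM on a log axis against the striatal marker score, the mean standardized log2 CPM of 8 markers, with 1 point for each of 31 mice. Cadm1 is lower at higher scores (r of -0.82), although the 6 mice of lowest score show no steady order and the highest Cadm1 (312 CPM) is not at the lowest score, while Nrxn3 goes up (r of 0.73, or 0.45 over the 25 mice outside the low tail).

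The remaining relations that passed adjustment were those of Cntnap2, Lrrtm2, Nlgn3 and Nrxn2. Cntnap2 went with interneuron markers (r of 0.72, rho 0.57, adjusted p = 0.00066), higher than all but 0.0829% of genes did, and with central amygdala markers (0.53, adjusted p = 0.0190, 1.74% of genes as high). The interneuron list held Gad1, Gad2, Slc32a1, Sst, Pvalb, Vip, Npy and Dlx1, and which of them carried the relation was not tested. Between genotypes in line 1, 3 of these 8 had a log2 fold change above 0 (Sst 0.47, Vip 0.96, Dlx1 0.77). The rest, among them Gad1 (-0.16), Gad2 (-0.17) and Slc32a1 (-0.28), were below 0, and none of the 8 passed adjustment. The score is that of the whole list and was not shown to follow interneurons alone. The r with interneuron markers was 0.49 without the 2 farthest mice, 0.60 within line 1 and 0.76 within line 3. Over the 25 mice these relations had r of 0.50 (adjusted p = 0.0762) and 0.44 (adjusted p = 0.117), and did not pass. Lrrtm2 was lower with hippocampal markers (r of -0.69, rho -0.68, adjusted p = 0.000742) and with astrocyte markers (r of -0.64, rho -0.63, adjusted p = 0.00337), with 0.805% and 0.343% of genes as low. Within line 1 and line 3 these were -0.64 and -0.74 for hippocampal and -0.75 and -0.65 for astrocyte markers. The hippocampal relation passed over the 25 mice (-0.58, adjusted p = 0.0296) and the astrocyte one did not (-0.51, adjusted p = 0.0712). With excitatory principal neuron markers r of Lrrtm2 was 0.44 over all mice and did not pass (adjusted p = 0.0731). It was 0.74 over the 25 mice (adjusted p = 0.00264), 0.78 in line 1 (adjusted p = 0.0214) and -0.04 in line 3. Without CYFIP1 OE mouse 1 it was 0.50 (adjusted p = 0.0291). With striatal neuron markers r of Lrrtm2 was 0.44 over all mice (adjusted p = 0.0731) and 0.05 over the 25 mice. It was -0.07 in line 1 and 0.78 in line 3 (adjusted p = 0.0178). Nlgn3 was lower with oligodendrocyte markers (r of -0.63, rho -0.57, adjusted p = 0.00379, 1.96% of genes as low), with -0.64 in line 1 and -0.62 in line 3, and higher with excitatory principal neuron markers (0.50, adjusted p = 0.0285, 6.08% as high). Neither passed over the 25 mice (-0.52 with an adjusted p of 0.0712 and 0.48 with one of 0.0882).

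Nrxn2 was lower with microglia markers (r of -0.62, rho -0.64, adjusted p = 0.00396, 1.14% of genes as low), with -0.69 in line 1 and -0.62 in line 3, and it passed in all 4 other settings over 25 or more mice. Its r of 0.48 with interneuron markers (adjusted p = 0.0449, 6.24% as high) was 0.25 without CYFIP1 OE mouse 1 (adjusted p = 0.391). Further relations of Nrxn2 did not pass by r over all 31 mice but passed in other settings. With striatal neuron markers r was -0.13 over all 31 mice (adjusted p = 0.645) while rho was -0.60 (adjusted p = 0.0082), and r was -0.59 without that mouse (adjusted p = 0.00424), -0.78 within line 1 (adjusted p = 0.0139), 0.14 within line 3 and -0.75 over the 25 mice (adjusted p = 0.00264). Without that mouse Nrxn2 also had an r of 0.58 with excitatory principal neuron markers (adjusted p = 0.00783) and -0.58 with oligodendrocyte markers (adjusted p = 0.00782), against 0.33 and -0.30 over all 31.

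Over all 31 mice no relation of Nlgn1, Nlgn2 or Lrrtm1 passed adjustment, but some did in other settings. With sex and name group removed, Nlgn2 had an r of -0.58 with hippocampal markers (adjusted p = 0.00495) and -0.52 with oligodendrocyte markers (adjusted p = 0.0205), and Lrrtm1 had 0.50 with astrocyte markers (adjusted p = 0.0246) and -0.47 with microglia markers (adjusted p = 0.0378). The p values of that setting are too small, as stated above, so these calls are uncertain. Over the 25 mice Nlgn1 had an r of 0.63 with striatal neuron markers (adjusted p = 0.0240).

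The genes most like each of the 9 were named by Pearson's r over 31 mice, among 8448 others of at least 10 CPM. Cadm1 had the closest companions, with r of 0.92 for Pcdh8, 0.91 for Cpne6 and 0.89 for Bhlhe22. Nrxn3 was closest to Grm3 (0.89), Fam168a (0.85) and Akap9 (0.83), and Nrxn2 to Atp6v1b2 (0.86), Sgsm1 (0.85) and Tuba1a (0.85). Among the neuroligins, Nlgn3 was closest to Stxbp5 (0.81), Gria2 (0.68) and Usp14 (0.66), Nlgn1 to St3gal2 (0.76), Sub1 (0.75) and Nrgn (0.74), and Nlgn2 to Pknox2 (0.68), Ahdc1 (0.68) and Cisd1 (0.67). Lrrtm2 was closest to Pcsk2 (0.80), Nlk (0.75) and Fut9 (0.75), Lrrtm1 to Flrt3 (0.74), Rpl22 (0.65) and Pdhb (0.62), and Cntnap2 to Wfs1 (0.81), Stat5b (0.75) and Scg2 (0.75). Wfs1 is on the hippocampal list, yet Cntnap2 had an r of 0.06 with the score of that list.

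Cntnap2 holds further annotated loci within its span, and their reads did not follow it. On its strand lie 22 short loci of the class TEC, which together had at least 230 reads in each mouse. Set against the reads of Cntnap2 this was 38.1% to 176%, with a median of 65.8%. Across 31 mice their level in CPM had an r of 0.04 with Cntnap2 (rho 0.01, permutation p = 0.853), and -0.12 without the 2 mice farthest from the median of the loci, -0.20 in line 1 and 0.12 in line 3.

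Lastly, 72 other synaptic adhesion genes in 7 groups were examined, of which 70 passed the filter on low counts. None had an adjusted p under 0.05 in a genotype comparison. At an unadjusted p under 0.05, 1 was lower in CYFIP1 OE mice of both lines together, 1 was higher and 1 lower in line 1, and 2 were higher and 5 lower in line 3. The difference between lines was positive for 2 and negative for 4. Of the 70 these were 1, 2, 7 and 6 genes, against 4.3%, 3.96%, 7.93% and 8.1% of all genes. The genes named next are described by their values alone. The median log2 fold change over the 70 genes was -0.004 for both lines together, 0.04 in line 1 and -0.10 in line 3, where that over all genes was -0.0053, 0.0021 and -0.019.

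Among the latrophilins, teneurins and FLRT proteins, which bind one another across the cleft, Flrt2 was lower in line 3 (35.7 to 55.7 CPM in WT and 23.0 to 45.7 CPM in CYFIP1 OE mice, log2 fold change -0.43, SE 0.15, unadjusted p = 0.00927, adjusted p = 0.514 from edgeR). Tenm3 was lower in line 1 (8.9 to 18.5 CPM in WT and 6.21 to 12.2 CPM in CYFIP1 OE mice, -0.69, SE 0.25, unadjusted p = 0.00933). Adgrl1, which encodes latrophilin 1, was higher in line 3 (0.30, SE 0.14, p = 0.0335), and Tenm1 differed between lines by -0.63 (SE 0.28, p = 0.0306). None of these 4 passed adjustment and the WT and CYFIP1 OE ranges overlapped for each of them. In line 3 Adgrl1 had 227 to 494 CPM in WT and 372 to 548 CPM in CYFIP1 OE mice. Tenm1 had 21.9 to 47.1 CPM and 12.2 to 31.2 CPM there.

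In the remaining groups, Cntnap1, the paranodal relative of Cntnap2, was higher in line 3 (0.43, SE 0.17, p = 0.0144) and Cadm2, a relative of Cadm1, differed between lines by 0.59 (SE 0.26, p = 0.0285), the opposite sign to Cadm1. Of the partners of LAR receptor phosphatases, Lrfn1 was lower in line 3 (-0.61, SE 0.26, p = 0.0282) and differed between lines by -0.95 (SE 0.38, p = 0.0170), and Slitrk5 was lower in line 3 (-0.26, SE 0.12, p = 0.0335). The secreted protein C1ql3 was higher in line 1 (1.52, SE 0.69, p = 0.0340), with 6.25 to 129 CPM in WT and 2.65 to 502 CPM in CYFIP1 OE mice, and the cadherin Cdh11 differed between lines by -0.63 (SE 0.28, p = 0.0309). All of these p values are unadjusted, and no adjusted p among them was under 0.05.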

How the data were processed

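RNA of 31 BLA samples, 1 per mouse, was measured by QuantSeq. The authors mapped reads with STAR to GRCm38 with an annotation their methods call Gencode v11, quantified them with Salmon, and deposited estimated counts (expected counts) for 48709 genes without normalization. Tool versions are not given in the sources used here. Totals ran from 5286925 to 8685521 per mouse (median 7387798), which limits genes with few reads. GENCODE M21 named 48349 identifiers.

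Counts were rounded. A gene entered the test if 20% or more of the mice had 10 or more of its reads, which held for 17428, and was fitted with edgeR 4.0.16 in R 4.3.3 (TMM, quasi-likelihood F test), with sex and line, or sex and a coefficient for each line and genotype. CPM values are TMM-normalized, and log2 CPM used a prior count of 2. DESeq2 1.42.0 and sva 3.50.0 served in alternatives. The authors' sequencing principal components were not used here. Correlations used numpy 2.4.6 and two-sided permutation.

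The genes, lists and tests were chosen with earlier results of these data known. All 9 genes are reported in full, of the other adhesion genes the 10 with the smallest unadjusted p among those under 0.05 in a genotype comparison, and for each of the 9 the 3 genes with the highest r. Each mouse was 1 replicate, and the steps were tested on simulated data. Alternatives were another test, no filter, age, surrogate variables, marker scores, name groups and subsets of the mice, and leaving out each mouse in turn and the subset by striatal score were added after the data were seen.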

Additional observations from a re-analysis of the deposited data

Results flagged for a closer look

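Of 36 groups of mice examined (9 genes in 4 groups of 7 or 8), 3 had a mouse farther from the rest than the 95% limit of Dixon's test, and chance flags about 1 in 20 groups. WT mouse 11 of line 1 had 469.6 CPM of Nrxn3, where the next highest of the 8 had 326.5 CPM. WT mouse 4 of line 1 had 42.7 CPM of Nlgn2, next to 30.3 CPM. WT mouse 2 of line 3 had 26.8 CPM of Lrrtm1, next to 17.6 CPM, and this mouse also had the lowest Lrrtm2 of all 31 mice (12.3 CPM).

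The genotype difference differed between lines for 2 genes at an unadjusted p under 0.05 in the test of the difference itself. For Cadm1 the difference in line 3 minus that in line 1 was -0.98 (adjusted p = 0.535 from edgeR), and for Nrxn2 it was -0.43 (adjusted p = 0.587).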

How the results depend on the processing

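No adjusted p of the 9 genes fell under 0.05 in any comparison under any alternative run, and the smallest was 0.234 (Cadm1, difference between lines, without CYFIP1 OE mouse 1). Of 378 recomputed log2 fold changes 331 kept their sign and 47 did not. Within name groups, the log2 fold changes that turned were for both lines together Cntnap2 -0.074, Lrrtm1 0.14, Nrxn2 -0.20, Nrxn3 -0.14, in line 1 Lrrtm1 0.42, Lrrtm2 -0.42, Nlgn1 -0.11, Nlgn2 0.44, in line 3 Nrxn3 -0.027 and between the lines Lrrtm1 -0.32, Lrrtm2 0.23, Nlgn2 -0.52. With age added, the log2 fold changes that turned were for both lines together Lrrtm1 0.054, Lrrtm2 0.026, Nrxn2 -0.045, in line 1 Nlgn2 0.067, Nrxn3 0.068 and between the lines Nlgn2 -0.14. Without the mice aged 77 days, the log2 fold changes that turned were for both lines together Lrrtm1 0.085, Lrrtm2 0.0099, Nrxn2 -0.043, in line 1 Lrrtm1 0.051, Nlgn2 0.056, Nrxn3 0.037 and between the lines Nlgn2 -0.13. Without CYFIP1 OE mouse 1, the log2 fold changes that turned were for both lines together Lrrtm2 0.010, in line 3 Cntnap2 0.048, Lrrtm2 0.0096 and between the lines Nlgn2 -0.029. With 5 surrogate variables, the log2 fold changes that turned were in line 1 Lrrtm2 -0.074, Nlgn1 -0.019, Nrxn3 0.16, in line 3 Cadm1 0.040, Cntnap2 0.086, Nlgn1 -0.045, Nrxn2 0.16 and between the lines Nlgn1 -0.025, Nlgn2 -0.18, Nrxn2 0.051. With marker scores added, the log2 fold changes that turned were for both lines together Nrxn2 -0.029, in line 1 Nlgn1 -0.0016, Nrxn3 0.19, between the lines Nrxn3 -0.14, between WT mice of the 2 lines Cntnap2 0.073, Lrrtm1 -0.052, Nrxn3 0.15 and between the sexes Nrxn3 -0.016. The causes were not tested. In line 1, where Cadm1 was the only gene with an unadjusted p under 0.05, none had one with age, with 5 surrogate variables or without the mice aged 77 days, and with the marker scores Cntnap2 had one in its place (0.25, p = 0.0489). With 5 surrogate variables Nlgn2 was at -0.25 for both lines together (p = 0.0172) and -0.43 in line 3 (p = 0.0218). With each mouse left out in turn, Cadm1 ran from 0.45 to 0.80 in line 1 and from -1.10 to -0.75 between the lines, Nrxn2 from -0.50 to -0.33 between the lines and Lrrtm1 from 0.19 to 0.30 between the sexes. Of the 3 pairs of genes that passed over all mice, 1 passed in line 1 alone, 2 in line 3 alone and 1 over the 25 mice outside the low tail of the striatal score. Without CYFIP1 OE mouse 1 all 3 passed, and so did Nlgn1 with Lrrtm1 (r of 0.51, adjusted p = 0.0382). With sex and name group removed 2 of the 3 passed. In that setting, whose p values are too small, Nrxn2 with Nlgn1 (-0.56, adjusted p = 0.0131) and Nlgn3 with Cadm1 (0.52, adjusted p = 0.0219) passed as well. Of the 15 relations with marker lists, 3 passed in line 1 alone (of 5 that did), 5 in line 3 alone (of 7), 4 over the 25 mice (of 8), 14 without CYFIP1 OE mouse 1 (of 19), 12 by rho (of 15) and 13 with sex and name group removed (of 21). The 25 mice and the removal of name group were chosen after seeing the data. The number of all genes with an unadjusted p under 0.05 ran over the alternatives from 656 to 2534 for both lines together, 496 to 2208 in line 1, 717 to 3089 in line 3, 578 to 3123 between the lines, 589 to 2482 between WT mice and 849 to 2474 between the sexes. All the upper ends came from the run without a filter on low counts, which tested 32936 genes. Over the fits to the 17428 genes the highest numbers, in the same order, were 993, 1185, 1574, 1816, 969 and 970. No paired analysis was possible because the replicate numbers follow the order of the samples and pair no mice, and blocking was by name group instead (values above), where 5 groups with 9 WT and 9 CYFIP1 OE mice held both genotypes. Depth limits the lowest genes, Lrrtm1, Lrrtm2 and Nlgn2, whose counts were as low as 65, 95 and 91 reads a mouse.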
